A study of Mus musculus with 12 samples.

Results

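The clustered protocadherin genes are 3 neighbouring gene families on mouse chromosome 18, here called alpha, beta and gamma. All gene symbols that follow the family's naming pattern (Pcdha, Pcdhb, or Pcdhga, Pcdhgb and Pcdhgc with an isoform number, and Pcdhac1 and Pcdhac2) were taken, which gave 57 of the 54735 symbols in the files: 13 alpha, 22 beta and 22 gamma genes. Their RNA was measured in the dorsal telencephalon (the pallium, which forms the cortex) of 12 C57/Bl6 mouse embryos at E13.5. The 4 control embryos were Rnu11wt/flx::Trp53wt/wt::Emx1-Cre+, the 4 cKO embryos were Rnu11flx/flx::Trp53wt/wt::Emx1-Cre+, and the 4 dKO embryos were Rnu11flx/flx::Trp53flx/flx::Emx1-Cre+. All carried Emx1-Cre, so the controls had 1 floxed Rnu11 allele exposed to Cre. Emx1-Cre acts in pallial progenitors and the cells they form, so vessels, microglia, meninges and immigrant interneurons in the tissue keep their alleles. Rnu11 encodes U11, a small nuclear RNA needed to splice the rare minor introns, and Trp53 encodes p53.

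Clustered protocadherins are cell-surface adhesion proteins that bind identical isoforms on other cells, and they are known for letting a neuron tell its own branches from those of its neighbours. Each isoform has its own variable first exon and promoter. In the alpha and gamma clusters that exon is spliced to constant exons shared by the whole cluster, which encode the common cytoplasmic end, while a beta isoform is a gene without constant exons. Neurons choose a few promoters each, with CTCF, cohesin and DNA methylation taking part in the choice. The 5 C-type isoforms (Pcdhac1, Pcdhac2, Pcdhgc3, Pcdhgc4 and Pcdhgc5), which lie at the constant-exon end of their clusters, are expressed more broadly.

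In the GENCODE M21 annotation of GRCm38 (mm10), all 57 genes lie on the plus strand. The alpha genes span chr18:36930184-37187661, the beta genes chr18:37264938-37524479 and the gamma genes chr18:37661793-37841873. Exon sequence that more than 1 member covers made up a median of 53.5% of an alpha gene and 44.7% of a gamma gene, and a median of 0% of a beta gene (at most 9.67%). How the authors divided reads from shared exons among isoforms is not given in the sources used here, so the level of a single alpha or gamma isoform is less certain than that of a beta isoform. Pcdha11 stands for 2 Ensembl genes in that annotation, and Pcdhgb8 is annotated as a polymorphic pseudogene.

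The values are TPM, which scale reads by gene length to a fixed library sum. TPM keeps no depth, so the depth behind each value is unknown and no counting interval can be given. In cKO libraries most genes had higher TPM than in controls, with a median log2 change of 0.33 over the 20128 genes that averaged at least 0.1 TPM. Protein-coding genes held 14.4% to 19.99% of the TPM sum of a library, highest in cKO embryo 4. Each comparison is therefore also given after median-shift centring, in which the median log2 difference between a library and the mean of all libraries is subtracted from that library. For sums, group means and overlaps, the shifts came from genes of at least 1 TPM on log2(TPM + 1). Each fit used shifts from its own genes. Those of the fit at 0.1 TPM were larger in cKO, as in cKO embryo 4 with 0.37 against 0.32. Centred sums, means and overlaps were therefore corrected less than that fit. Rnu11 RNA was 640.5 ± 86.4 TPM (SD, n = 4) in controls, 144 ± 20.4 in cKO and 164 ± 26.3 in dKO embryos, and no mutant overlapped the controls (exact two-sided permutation test, p = 0.0286, the smallest that 4 against 4 allows, adjusted p = 0.0429 for each). Trp53 RNA was 3.82 ± 1.73 TPM in controls, 4.24 ± 0.404 in cKO and 1.22 ± 0.252 in dKO embryos, and dKO lay below both other groups (adjusted exact permutation p = 0.0429 each). The embryos matched their genotype labels in these levels.

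The clustered protocadherins were weakly represented in the E13.5 pallium. Summed over all 57 genes they reached 12.5 ± 1.73 TPM (SD, n = 4) in controls. Only Pcdhgc3, a gamma C-type isoform, averaged at least 1 TPM over the 12 libraries, at 1.77 TPM. A mean of at least 0.1 TPM was reached by 39 genes, of which 7 were alpha, 11 beta and 21 gamma. RNA of 51 genes was listed above 0 in all 12 libraries. The 6 others were Pcdha1, Pcdhb1, Pcdhb12, Pcdhb13, Pcdhb15 and Pcdhga10, which were listed at 0 in 1 to 5 libraries.

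The gamma cluster carried most of the signal. Its genes had a median of 0.511 TPM over all libraries, against 0.102 for alpha and 0.099 for beta genes. After Pcdhgc3, the gamma genes with the highest means were Pcdhgb6 at 0.693 TPM, Pcdhga12 at 0.634 TPM and Pcdhgb7 at 0.589 TPM, all from the 3' part of the A and B isoform array. The 3 are too close to be ranked: in controls Pcdhgb6 ranged from 0.544 to 0.775 TPM, Pcdhga12 from 0.383 to 0.566 TPM and Pcdhgb7 from 0.381 to 0.569 TPM. In the alpha cluster the C-type isoform Pcdhac2 led with a mean of 0.312 TPM, followed by Pcdha11 at 0.251, Pcdha9 at 0.129 and Pcdha4 at 0.118 TPM. The beta genes were flatter. Their highest means were 0.208 TPM for Pcdhb22, 0.203 for Pcdhb7, 0.191 for Pcdhb17 and 0.188 for Pcdhb19, and these 4 overlapped in controls. The lowest members of the clusters were Pcdhb1 at 0.00824 TPM, Pcdha1 at 0.0176 TPM and Pcdhga10 at 0.0779 TPM.

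**Figure D1:**
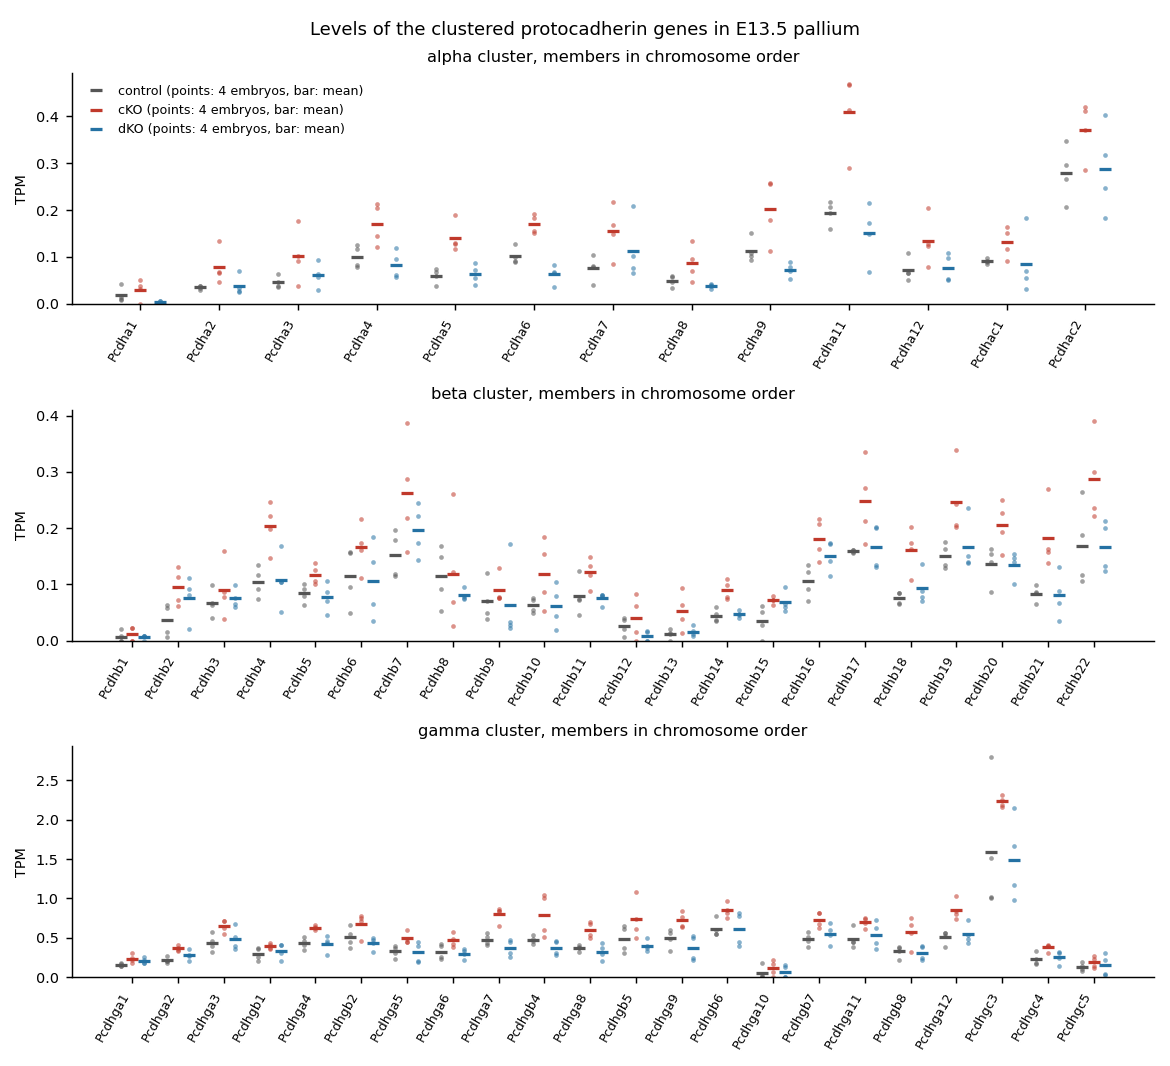
TPM of each of the 57 clustered protocadherin genes, in chromosome order within the alpha, beta and gamma clusters; points are single embryos and bars are means of 4 embryos in control (grey), cKO (red) and dKO (blue), and each panel has its own linear axis. Pcdhgc3 stands above the other gamma genes, and the red bar is the highest for every gene.

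The order of the isoforms was much alike in the 3 genotypes. Across the 57 genes, Spearman's rho between group means was 0.975 for control and cKO, 0.965 for control and dKO, and 0.957 for cKO and dKO. This is a description across genes, which are not independent replicates, and the genes share their libraries and, in the alpha and gamma clusters, annotated exons. Embryos of 1 group varied by a median coefficient of variation of 24.95% in controls, 24.7% in cKO and 31.7% in dKO over the 57 genes. A change of a single isoform has to be read against that spread.

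All 3 clusters were higher in cKO than in control embryos as deposited. The alpha sum was 1.31, 1.30, 1.16 and 1.18 TPM in the 4 controls, 2.11, 2.33, 2.50 and 1.78 TPM in cKO, and 0.772, 1.51, 1.23 and 1.05 TPM in dKO. The beta sum was 1.87, 1.81, 1.84 and 2.02 TPM in controls, 3.01, 3.99, 2.63 and 3.02 TPM in cKO, and 1.88, 1.77, 2.38 and 2.07 TPM in dKO. The gamma sum was 11.3, 9.48, 7.28 and 9.57 TPM in controls, 12.1, 15.4, 14.98 and 14.3 TPM in cKO, and 6.73, 11.05, 11.4 and 7.32 TPM in dKO. In each cluster every cKO embryo lay above every control and every dKO embryo, while dKO and control embryos overlapped. The cKO mean was 1.76 times the control mean for alpha, 1.68 times for beta and 1.51 times for gamma. The dKO mean was 0.919, 1.07 and 0.971 times the control mean in the same order. No test was made of these sums, since the genes were chosen with earlier results of these data known.

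The ratios were smaller after median-shift centring with the shifts from genes of at least 1 TPM. They were 1.49 for alpha, 1.41 for beta and 1.27 for gamma from control to cKO. The beta sum then still separated, at 2.43 to 3.47 TPM in cKO against 1.90 to 2.13 TPM in controls. The alpha sums overlapped because cKO embryo 4, at 1.43 TPM, fell just below control embryo 2, at 1.45 TPM. The gamma sums overlapped too, with control embryo 1 at 11.5 TPM beside cKO embryos from 11.4 to 14.2 TPM, although under protein-coding rescaling (each library scaled to an equal sum over nuclear protein-coding genes) they did not. Under that rescaling the alpha sums of cKO and control embryos still overlapped. The cKO and dKO sums overlapped in every cluster, both after centring and under the rescaling. In bulk tissue, fewer cells of a type and less RNA per cell cannot be told apart.

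**Figure D2:**
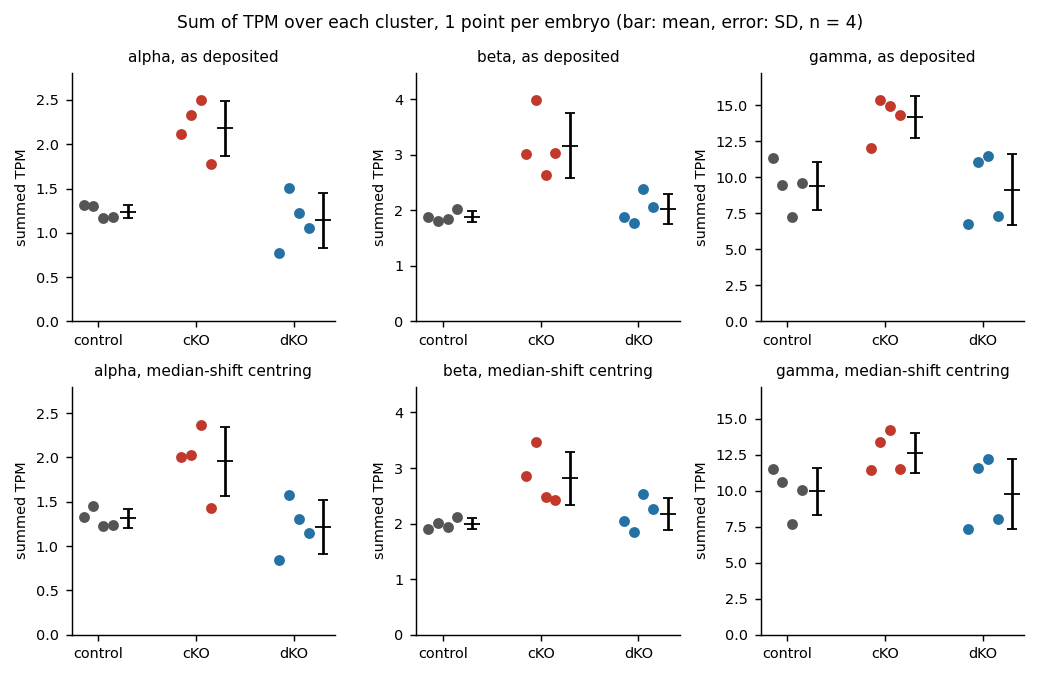
Summed TPM of the alpha, beta and gamma clusters in each embryo (points), with the mean and SD of 4 embryos beside them, as deposited in the upper row and after median-shift centring in the lower row. The cKO points lie above the others in all 3 upper panels, and in the lower row only the beta cKO points clear all controls.

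The relative size of the clusters did not separate the genotypes. Alpha genes held 9.99% ± 1.06 (SD, n = 4) of the summed TPM in controls, 11.2% ± 1.47 in cKO and 9.24% ± 1.23 in dKO. Beta genes held 15.3% ± 2.13, 16.2% ± 2.35 and 17.0% ± 3.66, and gamma genes 74.8% ± 3.00, 72.6% ± 2.42 and 73.8% ± 3.35. Embryos of all 3 genotypes overlapped in each of these shares, which do not depend on how a library is scaled. Within the gamma cluster the A isoforms held 45.9% to 46.9% and the B isoforms 33.3% to 34.1% of the sum by group mean, also with overlap.

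Single isoforms were tested with limma in a fit over all genes. Under the rule set for the comparisons, a mean of at least 1 TPM and log2(TPM + 1) over 11764 genes, only Pcdhgc3 could be tested. Pcdhgc3 is a C-type isoform known for broad expression that includes glia. It measured 2.79, 1.02, 1.01 and 1.52 TPM in controls, 2.16, 2.25, 2.19 and 2.32 TPM in cKO, and 0.975, 2.14, 1.67 and 1.17 TPM in dKO. The cKO embryos were tightly grouped, and control embryo 1 lay above all of them. The log2 change of Pcdhgc3 from control to cKO was 0.37 (SE 0.193, limma adjusted p = 0.141), from control to dKO it was -0.03 (adjusted p = 0.958), and from cKO to dKO it was -0.40 (adjusted p = 0.111). None was called at an adjusted p under 0.05. The share of all genes called was 34.3% higher and 1.09% lower in cKO than in control, 1.79% higher and 3.4% lower in dKO than in control, and 0.612% higher and 38.8% lower in dKO than in cKO. Control embryo 1 decided 2 of these calls. Without it, Pcdhgc3 was called higher in cKO than in control (log2 change 0.57, adjusted p = 0.0165) and lower in dKO than in cKO (adjusted p = 0.0402). In that fit 3845 of 11780 genes were called higher and 4554 lower in the same comparisons. After centring with a filter of 0.1 TPM, no member was called without control embryo 1.

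The other members were tested at a mean of at least 0.1 TPM and on log2(TPM + 0.1), an alternative listed beside the main rule. It took in 39 of the 57 genes and 20128 genes in all. The log2 changes below are on this scale, which understates the change of genes at such low levels. The 18 genes below 0.1 TPM were tested only in a fit with no filter on low values, on log2(TPM + 1) over 39624 genes. There Pcdha5 and Pcdhb14 were called, both higher in cKO than in control (limma adjusted p = 0.020 and 0.024) and lower in dKO than in cKO (adjusted p = 0.020 and 0.025), beside 11% of all genes higher and 14.5% lower in these comparisons. They were named after their values were seen.

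From control to cKO, limma called 6 of the 39 genes higher and 0 lower as deposited. Over all genes the shares were 26.8% higher and 0.705% lower, so the members were not called more often than other genes. Among the 8364 genes between 0.1 and 1 TPM, the range that holds 38 of the 39 members, 20.7% were called higher. The median log2 change of the 39 genes was 0.48, against 0.33 for all genes and 0.41 for the genes between 0.1 and 1 TPM. The 6 genes were 1 alpha isoform, Pcdha11, and 5 gamma isoforms, Pcdhga2, Pcdhga7, Pcdhga8, Pcdhgb7 and Pcdhga12, and no beta isoform passed. The count was only 1 without cKO embryo 2, without cKO embryo 4 or without control embryo 3, and 3 without control embryo 2. It was 8 without cKO embryo 1 or without dKO embryo 1, which enters through the common estimate of spread. Over all genes the count moved too, to 3195 of 19975 without cKO embryo 2 and 5745 of 20222 without dKO embryo 1.

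Pcdha11 is a variable alpha symbol that stands for 2 Ensembl genes in GENCODE M21, so its values may not be those of 1 isoform. It measured 0.160, 0.216, 0.193 and 0.205 TPM in controls, 0.412, 0.467, 0.468 and 0.290 TPM in cKO, and 0.0682, 0.149, 0.172 and 0.214 TPM in dKO. Every cKO embryo lay above all controls and all dKO embryos, and dKO embryos reached from well below the controls into their range. From control to cKO Pcdha11 rose by 0.78 on the log2 scale (SE 0.220, limma adjusted p = 0.022). This fitted change was larger than those of the other 38 tested genes, but the order depends on the pseudocount. By ratio of the cKO mean to the control mean, the beta isoforms Pcdhb21 (2.19) and Pcdhb18 (2.15) rose further than Pcdha11 (2.11). Neither beta isoform was called (limma adjusted p = 0.070 and 0.059).

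Pcdhga7, a gamma isoform of the A type, measured 0.558, 0.509, 0.435 and 0.407 TPM in controls, 0.654, 0.863, 0.838 and 0.840 TPM in cKO, and 0.261, 0.452, 0.476 and 0.305 TPM in dKO. The 3 cKO embryos other than the first lay close together, and all 4 were above the controls. Its log2 change to cKO was 0.64 (SE 0.182, limma adjusted p = 0.023).

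Pcdhga12, the last of the A-type isoforms before the C-type genes, measured 0.566, 0.557, 0.383 and 0.522 TPM in controls, 0.736, 0.846, 0.800 and 1.03 TPM in cKO, and 0.429, 0.541, 0.721 and 0.481 TPM in dKO. No cKO embryo overlapped another group, and dKO and control embryos mixed. Its log2 change to cKO was 0.65 (SE 0.175, limma adjusted p = 0.018).

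Pcdhga2, Pcdhga8 and Pcdhgb7 had smaller fitted log2 changes of 0.58, 0.57 and 0.52 (limma adjusted p = 0.029, 0.041 and 0.041). By ratio of group means Pcdhga2 did not change less, at 1.71 beside 1.68 for Pcdhga12 and 1.67 for Pcdhga7. Pcdhga2 lay at 0.180 to 0.270 TPM in controls and 0.339 to 0.406 TPM in cKO, and Pcdhga8 at 0.320 to 0.409 and 0.503 to 0.700 TPM. Pcdhgb7 lay at 0.381 to 0.569 and 0.625 to 0.818 TPM. All 3 separated without overlap. With 1 embryo left out in turn (12 fits), Pcdha11 and Pcdhga12 were called in 10 fits each, Pcdhga7 in 8, Pcdhga2 in 7, Pcdhgb7 in 6 and Pcdhga8 in 4. Pcdha11 was lost without cKO embryo 2 or 3 (limma adjusted p up to 0.0642), Pcdhga12 without cKO embryo 4 or control embryo 3 (up to 0.0563), and Pcdhga7 without cKO embryo 2 or 4 or control embryo 3 or 4 (up to 0.0639).

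Counted without a test, each of the 57 genes had a higher mean in cKO than in control as deposited, and 78.5% of all genes with any signal were higher. With means centred by the shifts from genes of at least 1 TPM, 56 of 57 were higher, against 65.6% of all genes. In the fit centred by its own larger shifts, the log2 change was above 0 for 33 of the 39 tested members and below 0 for 6. The members share libraries, and alpha and gamma members share exons, so these are not separate observations. Groups did not overlap for 16 of the 39 genes as deposited (29.4% of all genes) and for 7 after centring (13.7% of all genes): Pcdha6, Pcdhb4, Pcdhb18, Pcdhb21, Pcdhga2, Pcdhga7 and Pcdhga12. As deposited, Pcdhb8 was the only one of the 39 with a fitted log2 change below 0 in cKO against control: it ranged from 0.0260 to 0.260 TPM within cKO and had a log2 change of -0.05 as deposited.

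After centring, limma called 0 of the 39 genes from control to cKO, with 0 at an unadjusted p under 0.05, while the calls over all genes were 3.2% higher and 2.18% lower. The median log2 change of the members was then 0.14, against -0.01 for all genes and 0.07 for the genes between 0.1 and 1 TPM. Pcdha11 had 0.44 (adjusted p = 0.312), Pcdhga12 0.31 (adjusted p = 0.269) and Pcdhga7 0.30 (adjusted p = 0.325). The members' median was above that of all genes, and no single isoform passed on that scale. When 200 genes were shifted by a log2 change of 1 in simulated cKO libraries, this fit recovered 56% of them. The shifted genes were drawn from all 20128 tested genes, and the members' changes were at most 0.44. Recovery of changes of that size at the members' levels was not measured, and such changes could be missed.

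From cKO to dKO, which differ in Trp53, the means of all 57 genes were lower. As deposited limma called 12 of the 39 genes lower and 0 higher, beside 32.8% of all genes lower and 0.551% higher. The median log2 change of the members was -0.47, against -0.35 for all genes and -0.43 for the genes between 0.1 and 1 TPM. This comparison uses the same cKO libraries as the one with controls, so the 2 are not independent. The genes called were 3 alpha isoforms (Pcdha6, Pcdha9 and Pcdha11), 1 beta isoform (Pcdhb21) and 8 gamma isoforms (Pcdhga4, Pcdhga7, Pcdhgb4, Pcdhga8, Pcdhgb5, Pcdhga9, Pcdhgb8 and Pcdhga12). The count ranged from 6, without cKO embryo 2 or without dKO embryo 1, to 12, and was 7 without cKO embryo 4 or without dKO embryo 4. Over all genes, 4303 of 19975 were called lower without cKO embryo 2 and 5399 of 20222 without dKO embryo 1.

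The largest fitted decreases were those of Pcdha11, with -1.04 on the log2 scale (SE 0.220, limma adjusted p = 0.005), and Pcdhga7, with -0.95 (SE 0.182, adjusted p = 0.003). This order too depends on the pseudocount. By ratio of the dKO mean to the cKO mean, Pcdha9 (0.362), Pcdha11 (0.369), Pcdha6 (0.371) and Pcdhb21 (0.440) all fell further than Pcdhga7 (0.468). Pcdhgb4 fell by 0.88 on the log2 scale (adjusted p = 0.012) and Pcdhga9 by 0.87 (adjusted p = 0.018). In the middle of the gamma array, Pcdhgb4 measured 0.506, 1.01, 1.04 and 0.602 TPM in cKO and 0.303, 0.445, 0.458 and 0.283 TPM in dKO. Its cKO embryos split widely, yet the lowest was above the highest dKO embryo.

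Pcdha6 and Pcdha9 were the other alpha isoforms called. Pcdha6 measured 0.191, 0.154, 0.152 and 0.184 TPM in cKO and 0.0365, 0.0830, 0.0677 and 0.0657 TPM in dKO, beside 0.0895, 0.0999, 0.0913 and 0.128 TPM in controls. Its 3 genotypes did not overlap at all, with cKO highest and dKO lowest, and the log2 change from cKO to dKO was -0.73 (limma adjusted p = 0.014). Pcdha9 measured 0.256, 0.258, 0.180 and 0.112 TPM in cKO and 0.0904, 0.0522, 0.0694 and 0.0796 TPM in dKO, a log2 change of -0.77 (adjusted p = 0.020). Pcdhb21, at 0.138 to 0.270 TPM in cKO and 0.0347 to 0.132 TPM in dKO, was the one beta isoform called (log2 change -0.65, adjusted p = 0.047). With 1 embryo left out in turn, Pcdha6, Pcdha11, Pcdhga7, Pcdhga8 and Pcdhgb4 were called in all 12 fits. Pcdha9 was lost without cKO embryo 2 (limma adjusted p = 0.0659) and Pcdhga9 without dKO embryo 1 or 4, while Pcdhga12 was called in 8 fits, Pcdhgb5 in 5, Pcdhgb8 in 4 and Pcdhb21 in 2. Pcdhga4, called at a limma adjusted p of 0.044, was not among the members followed through these fits.

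After centring limma called 0 of the 39 genes between cKO and dKO, with 3 lower at an unadjusted p under 0.05, beside 2.31% of all genes higher and 3.65% lower. Pcdhga7 came closest, with -0.58 (limma adjusted p = 0.054), followed by Pcdha11 with -0.68 (adjusted p = 0.103). Under protein-coding rescaling both were called, Pcdha11 at an adjusted p of 0.040 and Pcdhga7 at 0.026, as the 2 members among 9.36% of all genes called lower. From control to cKO, limma under the same rescaling called 0 of the 39 genes, beside 2001 of 20115 genes called higher. Groups did not overlap for 14 of the 39 genes as deposited, all lower in dKO (30% of all genes), and for 2 after centring, Pcdha6 and Pcdhga7 (13% of all genes).

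Between dKO and control, which differ in both genes, no member was called on either scale. As deposited the count was 0 of 39, with 0 at an unadjusted p under 0.05, while the calls over all genes were 2.61% higher and 3.51% lower. After centring limma again called 0, and 0 had an unadjusted p under 0.05, beside 3.91% and 3.89% of all genes. The median log2 change of the members was -0.02 as deposited, as for all genes. Means were higher in dKO for 27 of the 57 genes and lower for 30. The largest fitted differences were -0.39 for Pcdhga9 and 0.29 for Pcdhb16 on the log2 scale. By ratio of the dKO mean to the control mean, Pcdha6 (0.619) and Pcdha9 (0.641) lay further down than Pcdhga9 (0.743). Pcdha7 (1.49) lay further up than Pcdhb16 (1.43). Groups did not overlap for 2 of the 39 genes as deposited, both lower in dKO (8.47% of all genes). They were Pcdha6 and Pcdha9. Among the genes below 0.1 TPM, Pcdha1 was lower in dKO without overlap too. After centring Pcdha6 remained apart (7.67% of all genes lower), and Pcdhga1 lay above the controls (6.51% of all genes higher), at 0.175 to 0.253 TPM in dKO and 0.139 to 0.179 TPM in controls as deposited.

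**Figure D3:**
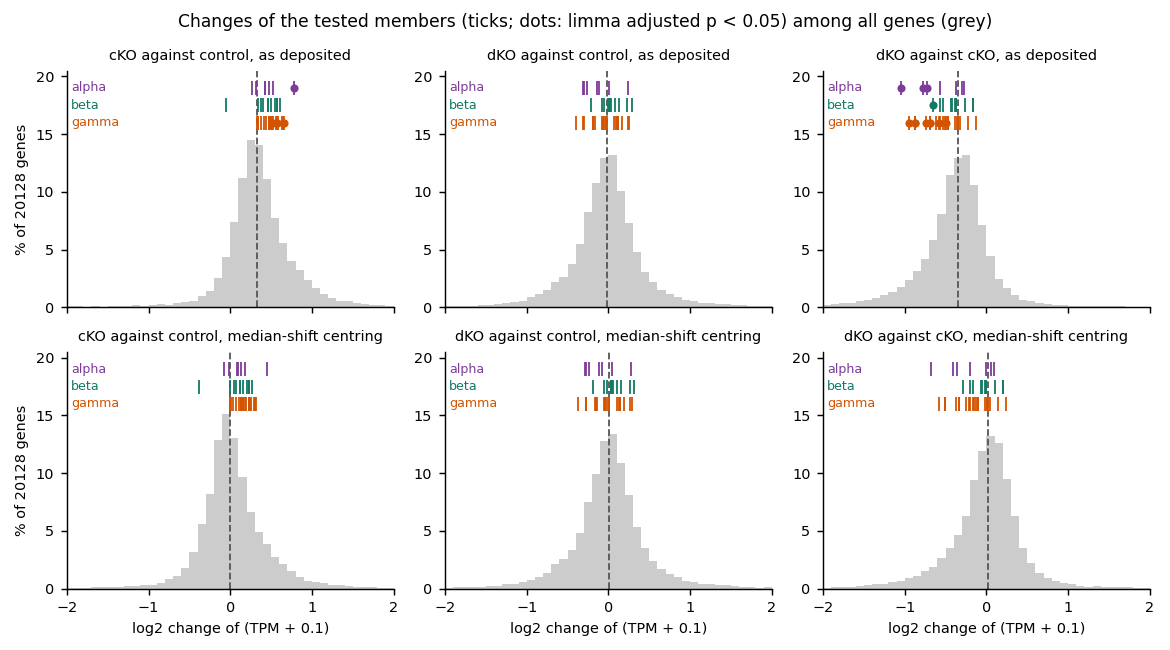
Log2 changes of (TPM + 0.1) for the 39 testable members (ticks, by cluster; dots mark limma adjusted p under 0.05) above the distribution of 20128 genes (grey bars, percent of genes; dashed line, median), as deposited (upper row) and after median-shift centring (lower row). Dots appear only as deposited, for 6 genes in cKO against control and 12 in dKO against cKO, and the ticks move with the grey distribution.

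The C-type isoforms, which follow another mode of promoter use than the variable isoforms, were compared by their share of the cluster. Pcdhac2 held 26.4%, 15.9%, 22.9% and 24.97% of the alpha sum in controls, 19.4%, 15.9%, 16.8% and 16.0% in cKO, and 23.8%, 26.7%, 25.8% and 23.6% in dKO. Every dKO embryo was above every cKO embryo, while controls spanned both. Over the alpha genes above 0.1 TPM only, the dKO share was again above the cKO share without overlap. Pcdhac2 TPM itself was 0.279 in controls, 0.371 in cKO and 0.288 in dKO by group mean, with log2 changes of 0.32 to cKO (limma adjusted p = 0.258) and -0.30 from cKO to dKO (adjusted p = 0.271). The cKO mean of Pcdhac2 was 1.33 times its control mean, beside 1.76 times for the alpha sum.

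Pcdhac1 held 7.37% ± 0.242 (SD, n = 4) of the alpha sum in controls, 5.94% ± 0.848 in cKO and 6.87% ± 3.67 in dKO. Controls and cKO did not overlap, at 7.10% to 7.64% and 5.12% to 7.07%, but did overlap when only alpha genes above 0.1 TPM made up the sum. Pcdhgc3 held 16.3%, 15.9% and 16.1% of the gamma sum by group mean, and control embryo 1 reached 24.6%. Pcdhgc4 held 2.40%, 2.66% and 2.74%, and Pcdhgc5 1.38%, 1.36% and 1.46%, with overlap among all groups. Among the variable isoforms, Pcdha11 held 15.7% ± 2.37 of the alpha sum in controls, 18.6% ± 1.63 in cKO and 13.3% ± 5.26 in dKO, and these overlapped.

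**Figure D4:**
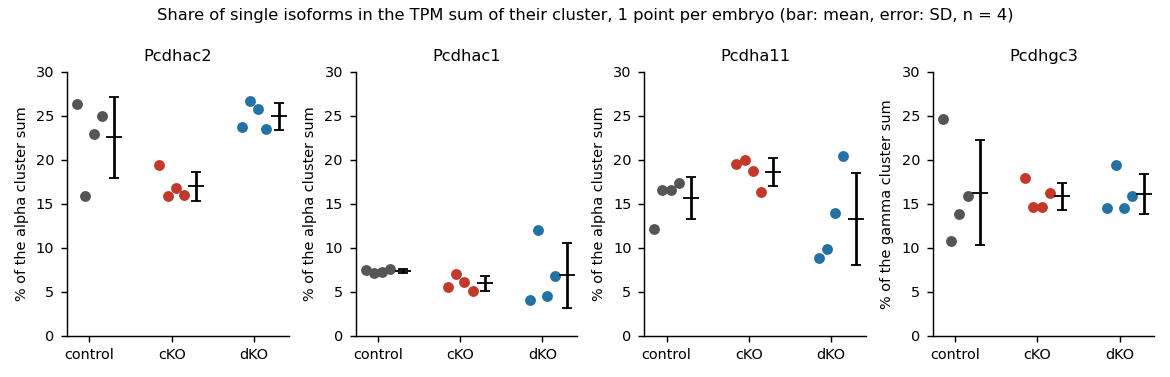
Share of Pcdhac2, Pcdhac1 and Pcdha11 in the summed TPM of the alpha cluster and of Pcdhgc3 in that of the gamma cluster, in percent; points are embryos, with the mean and SD of 4 beside them. The dKO points of Pcdhac2 lie above its cKO points, and the Pcdhgc3 means are nearly level.

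Other transcripts of the region were read beside the members. Whether the authors counted reads by strand is not stated, so reads of a protocadherin gene and of an antisense gene over it cannot be told apart. BC037039, antisense at the start of Pcdhgc3, was 0.647 ± 0.181 TPM (SD, n = 4) in controls, 1.05 ± 0.119 in cKO and 0.735 ± 0.172 in dKO. Gm26672, on the opposite strand over the gamma array, ranged from 0.947 to 0.990 TPM in controls, 1.22 to 1.795 TPM in cKO and 0.552 to 1.16 TPM in dKO. Both were called higher in cKO than in control as deposited (limma adjusted p = 0.030 and 0.031), and neither was after centring (adjusted p = 0.465 and 0.462). These 2 were chosen after their values were seen.

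Related genes were read from 4 lists in the fit over genes of at least 1 TPM, where, as deposited, the calls took in 34.3% of all genes as higher in cKO against control and 38.8% as lower in dKO against cKO. After centring, the share of all genes called there was 3.72% higher and 2.96% lower in cKO than in control, 3.74% and 4.69% in dKO against control, and 2.1% and 3.83% in dKO against cKO. Of 12 non-clustered protocadherins, single-gene relatives that also act in adhesion, 6 were tested. Pcdh10 (log2 change 0.37, limma adjusted p = 0.018) and Pcdh9 (0.46, adjusted p = 0.038) were called higher in cKO than in control, and Pcdh10, Pcdh7 and Pcdh9 (the last by -0.82) lower in dKO than in cKO. None was called after centring. Their median log2 change to cKO was 0.31, beside 0.25 for all genes.

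Of 23 factors known to act on promoter choice and chromatin at the clusters, 22 were tested. As deposited 8 were called higher in cKO than in control (34.3% of all genes) and 12 lower in dKO than in cKO (38.8% of all genes). Tet1, an enzyme that removes DNA methylation marks, had the largest changes, 0.75 to cKO (limma adjusted p = 0.0075) and -0.56 from cKO to dKO. Ctcf, which anchors the chosen promoters, was called only from cKO to dKO, by -0.42. After centring 0 were called in both of these comparisons, and Pds5a, a cohesin regulator, was called lower in dKO than in control. The median to cKO was 0.27.

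Of 20 intracellular partners and proteases, 18 were tested, and 11 were called higher in cKO than in control and 7 lower in dKO than in cKO as deposited. Abi1, a subunit of the WAVE complex that binds protocadherin tails, had 0.53 to cKO, and Psenen, a subunit of the gamma-secretase that cleaves them, 0.49. Nckap1, another WAVE subunit, had -0.53 from cKO to dKO. After centring only Psenen was called, higher in dKO than in control. The median to cKO was 0.36.

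Of 12 genes within or beside the clusters, 9 were tested. Hars2, a mitochondrial histidine tRNA synthetase, had 0.48 to cKO and -0.78 from cKO to dKO, and was called lower in dKO than in cKO after centring too. Hars, its cytoplasmic counterpart, was lower in dKO than in control (log2 change -0.58, limma adjusted p = 0.011) on both scales. In all, 2 were called higher in cKO than in control and 5 lower in dKO than in cKO as deposited. Their median to cKO was 0.19.

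Markers of the cell types in the tissue also moved between genotypes, and their part in the protocadherin values was not tested. Clustered protocadherins are chiefly neuronal, and the summed TPM of 12 neuron markers was 262 to 292 in controls, 366 to 450 in cKO and 189 to 284 in dKO. After centring these sums were 265 to 325, 308 to 391 and 206 to 296 TPM, so cKO overlapped controls but not dKO. Of these markers 9 were called higher in cKO than in control (34.3% of all genes) as deposited, and 10 lower in dKO than in cKO (38.8%). After centring it was 2 (3.72% of all genes) and 5 (3.83%). The 9 radial glia markers summed to 274 to 301, 317 to 378 and 291 to 302 TPM, with 2 called higher and 1 lower in cKO than in control as deposited. After centring their sums overlapped, and 0 were called higher and 2 lower, Hes5 and Sox2. The 6 intermediate progenitor markers summed to 48.4 to 65.7, 49.7 to 68.3 and 48.5 to 59.4 TPM, with 1 higher and 1 lower in cKO as deposited and 0 higher and 2 lower, Eomes and Neurog2, after centring.

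Markers of the other cell types were read in the same way. The 5 microglia markers summed to 4.69 to 5.46 TPM in controls, 15.1 to 21.3 in cKO and 5.25 to 6.02 in dKO, with 4 called higher in cKO on both scales. Vessel and pericyte markers (6 genes) summed to 9.20 to 11.5, 17.8 to 24.1 and 12.3 to 17.9 TPM, and Cajal-Retzius markers (5 genes) to 15.4 to 22.3, 36.9 to 43.5 and 18.8 to 29.0 TPM. Interneuron markers (6 genes) summed to 1.73 to 2.41, 3.42 to 5.26 and 1.68 to 3.63 TPM. In these 4 lists cKO lay above control without overlap also after centring. Meninges markers (6 genes) summed to 23.0 to 39.9, 41.6 to 49.9 and 36.3 to 53.0 TPM, and cKO and control overlapped after centring. Choroid plexus (5 genes, 41.8 to 101, 72.7 to 250.5 and 67.4 to 297 TPM) and blood markers (6 genes, 1998 to 3015, 2436 to 3407 and 2193 to 2793 TPM) overlapped among genotypes. No marker was listed at 0 in all libraries.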

How the data were processed

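RNA of 12 dorsal telencephalons was extracted and sequenced as stranded total RNA, per the labels' protocols. HISAT2 and the mm10 build are named in the submitters' processing notes; how TPM were computed, from which gene models and with what handling of shared reads is not given in the sources used here. The authors deposited TPM per gene symbol, 1 table per embryo, each summing to 1000000, and the unit was read from these values. Nothing states that embryos came from separate litters, so p-values measure the spread between these embryos.

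Gene types and coordinates came from GENCODE M21, which holds 54106 of the 54735 symbols. Log2(TPM + 1) of 11764 genes (mean TPM of 1 or more) was fitted with limma 3.58.1 (lmFit, eBayes with trend) over 3 groups, and a Benjamini-Hochberg adjusted p under 0.05 was called. Only 1 member passed that filter, so results of single members rest on the listed alternative with a filter of 0.1 TPM and a pseudocount of 0.1. Named members are the C-type isoforms, the 4 highest of each cluster, and those called in a contrast (at most 10, by size of change), with up to 4 called genes of each list. The members and lists were chosen with earlier results of these data known. Further alternatives were other filters and pseudocounts, median-shift centring, protein-coding rescaling, quantile normalization, fits of 2 groups, a replicate block and leaving out each embryo. Some combinations of these with the 0.1 filter were added after seeing the data.

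In simulated data, 200 genes had a log2 change of 1 between control and cKO; the main fit recovered 91.5% with 9 false calls over 11764 genes. The fit with the 0.1 filter recovered 54.5% with 2 false calls over 20128 genes. Plots were drawn with matplotlib 3.10.9. No sequence of the members is printed.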

Additional observations from a re-analysis of the deposited data

Results flagged for a closer look

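In 3 of 96 groups of 4 embryos examined, 1 embryo stood far from the other 3, where about 4.8 such groups are expected by chance. For Pcdhb19 in dKO, embryo 3 was high at 0.235 TPM against 0.137 to 0.151 TPM in the others, a gap of 0.861 of the group's range. For Pcdhga7 in cKO, embryo 1 was low at 0.654 TPM against 0.838 to 0.863 TPM, a gap of 0.881 of the range. For Pcdhgc4 in cKO, embryo 1 was also low, at 0.306 TPM against 0.397 to 0.408 TPM, a gap of 0.892 of the range.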

How the results depend on the processing

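The count of members called in the main fit was 0 in each comparison, and other filters mainly changed how many members were tested. Called higher in cKO than in control were 7 of 39 with a filter of 0.1 TPM and 6 of 39 with that filter and a pseudocount of 0.1. With no filter it was 7 of 57, and 10 of 39 with the lower filter in a fit of only the 2 groups. Over all genes the same settings gave 5596 of 20128, 5392 of 20128, 4359 of 39624 and 5489 of 20128. Called lower in dKO than in cKO were 12, 12, 12 and 8 under the same settings, and 2 under protein-coding rescaling with the lower filter. Over all genes these were 6678, 6592, 5738 and 5495, and 1882 of 20115 under the rescaling. In cKO against control the rescaling called 0 of 39 members, beside 2001 of 20115 genes called higher. A filter of 5 TPM left no member. Leaving out 1 embryo gave 0 to 1 in the main fit, 1 to 8 and 6 to 12 with the lower filter, and 0 to 1 after centring with that filter. With the lower filter it gave 3 in cKO against control without control embryo 2, and in dKO against cKO 9 without control embryo 3 and 11 without dKO embryo 2. Over all genes, 19975 to 20222 in these fits, 3195 to 5745 were called higher in cKO than in control. In dKO against cKO, 4303 to 6565 were called lower. Same-numbered embryos did not deviate together (correlations of -0.0954 to 0.0745), so the main fit did not use the numbers as a pairing. Such correlations cannot exclude a shared litter or batch, and the labels do not say what the numbers mean. With the replicate number as a block, the counts were 0 in the main fit, 4 (cKO against control) and 7 (dKO against cKO) with the lower filter, and 0 after centring. With the block and the lower filter, 3991 of 20128 genes were called higher in cKO than in control, and 5283 lower in dKO than in cKO.

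After centring with the lower filter, the fitted log2 change turned its sign for 5 of the 39 members in cKO against control, 4 in dKO against control (Pcdhb4, Pcdhga4, Pcdhgc3 and Pcdhgc5, to at most 0.027) and 11 in dKO against cKO (to at most 0.23). In cKO against control the named members among them were Pcdhac1 (-0.078), Pcdhac2 (-0.020) and Pcdhgc5 (-0.0078). In dKO against cKO they were Pcdhac2 (0.062), Pcdhb7 (0.10), Pcdhga2 (0.047), Pcdhgb7 (0.0089) and Pcdhgc5 (0.012). The change of Trp53 in cKO against control turned to -0.070. None of the named ones had been called except Pcdhga2 and Pcdhgb7, and those only in cKO against control, which kept its sign. Centring moved the beta sum of controls to 2.00 TPM and the gamma sum of cKO to 12.6 TPM. Over alpha genes of at least 0.1 TPM, Pcdhac1 held 9.55% in controls and 8.06% in cKO, and Pcdhac2 29.1%, 23.0% and 33.5% in control, cKO and dKO. Shares over genes of at least 1 TPM were not run, as only Pcdhgc3 reaches that level. The unknown depth limits all values near 0.1 TPM.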

Other observations

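Among the other transcripts of the region, 2 that were lowest in dKO were singled out after their values were seen. Being lowest in dKO does not set them apart. Gm36858, Gm10545 and Gm18150, among others, also had their lowest mean there. These were called lower in dKO than in cKO as deposited (limma adjusted p = 0.013, 0.025 and 0.016), but not after centring. Gm37165 is an antisense gene in the middle of the gamma array (chr18:37714279-37726121 in GRCm38), over the starts of Pcdhga7, Pcdhgb4 and Pcdhga8. It measured 0.177, 0.386, 0.245 and 0.208 TPM in controls, 0.253, 0.215, 0.298 and 0.273 TPM in cKO, and 0.0931, 0.0684, 0.103 and 0.0201 TPM in dKO. Every dKO embryo lay below all others. Its log2 change from control to dKO was -1.04 (SE 0.236, limma adjusted p = 0.022), and -1.02 after centring (adjusted p = 0.028). Of all genes, 3.51% were called lower in that comparison as deposited and 3.89% after centring. Gm19035, a transcribed pseudogene within the alpha cluster (chr18:37079994-37082457), ranged from 0.0910 to 0.340 TPM in controls, 0.293 to 0.827 TPM in cKO and 0.0329 to 0.0850 TPM in dKO. From cKO to dKO it changed by -1.84 (limma adjusted p = 0.0021), and by -1.47 after centring (adjusted p = 0.028), beside 32.8% and 3.65% of all genes called lower.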
